A study of Mus musculus with 8 samples.

Results

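MicroRNA (miRNA) genes outside the imprinted Dlk1-Dio3 region of chromosome 12 were examined in the brains of adult mice exposed to ethanol before birth. The genes were taken as every probe set whose annotated symbols all began with Mirlet7, or with Mir and a digit, apart from those between Mir770 and Mir410. This gave 296 of the 23410 probe sets that carried a gene symbol. Of these, 9 belonged to the let-7 family and 27 carried the names of the Sfmbt2 cluster (Mir297, Mir466, Mir467 and Mir669). Another 7 read long host transcripts named after the miRNA they hold, 3 read such a transcript together with its miRNA, and 250 read other miRNA genes. A further 40 probe sets of the Dlk1-Dio3 region, and 30 whose annotation joined a miRNA to another gene, were left out. Mirlet7b and Mirlet7c-2, each joined to Lncppara, were among these 30, so the let-7 results below do not cover them.

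RNA came from whole brains of male C57BL/6J offspring at postnatal day (PD) 70, and every array held RNA of 3 non-littermate mice. Dams of the early groups were injected on gestational days (GD) 8 and 11, and dams of the late groups on GD14 and GD16. Each injection day brought 2 subcutaneous injections, of 2.5 g/kg ethanol in saline for the fetal alcohol exposed (FAE) animals and of saline alone for the controls. There were 2 arrays in each of the 4 groups, and ethanol was compared with saline within each timing, which asks whether brief prenatal exposure leaves a difference in the adult brain.

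A miRNA is cut from a hairpin in a longer primary transcript by Drosha and its partner Dgcr8, and then by Dicer1 into a short mature strand that guides an Argonaute protein to messenger RNAs. Pairing rests mainly on the seed, bases 2 to 8 of the mature strand, so miRNAs with a common seed are grouped as a family. The let-7 family is known for its rise as cells leave the progenitor state, and it is abundant in adult brain. The Sfmbt2 cluster is a run of repeated miRNA copies inside an intron of the imprinted gene Sfmbt2. The arrays used here, Affymetrix Mouse Gene 1.0 ST, are made for gene transcripts. Which form of a miRNA the probes read, and how much small RNA the purified RNA held, was not tested, so values are given as the signal of a miRNA gene and not as levels of mature miRNA.

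The mature sequences show what the let-7 genes share and which strands the other genes named below encode. They were read from RefSeq annotation of GRCm38.p6, in which 241 of the 299 symbols had a match, and capitals mark the seed. The hairpins of all 9 let-7 genes held a 5′ arm with the seed GAGGUAG, as did Mir98, and Mirlet7a-1 and Mirlet7a-2 held the same let-7a-5p:

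let-7a-5p: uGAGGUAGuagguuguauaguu
let-7c-5p: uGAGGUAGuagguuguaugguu
let-7d-5p: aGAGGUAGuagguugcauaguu
let-7e-5p: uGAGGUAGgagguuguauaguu
let-7f-5p: uGAGGUAGuagauuguauaguu
let-7g-5p: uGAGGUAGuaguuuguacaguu
let-7i-5p: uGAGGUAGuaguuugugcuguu
miR-98-5p: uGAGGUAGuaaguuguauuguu

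The genes that passed a threshold in some comparison outside the let-7 family did not share this seed. For Mir342, Mir196b, Mir34b, Mir186 and Mir326 a strand from the other arm was also listed and is not shown. For Mir375 only the 5p strand was listed. The strands are shown because the differences below are named after these genes:

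miR-451a: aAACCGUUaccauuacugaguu
miR-342-3p: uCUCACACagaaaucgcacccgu
miR-196b-5p: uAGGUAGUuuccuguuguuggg
miR-34b-5p: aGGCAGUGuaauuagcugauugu
miR-186-5p: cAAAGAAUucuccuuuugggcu
miR-326-3p: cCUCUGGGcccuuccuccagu
miR-375-5p: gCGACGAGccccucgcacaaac
miR-692: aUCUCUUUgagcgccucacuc

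The hairpins of Mirlet7a-2 and Mirlet7f-1 are given because these members of a single family lay on opposite sides of their controls. Mirlet7a-2 lies at chr9:41536716-41536811 on the plus strand and Mirlet7f-1 at chr13:48537829-48537917 on the minus strand, and capitals mark the mature arms:

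Mirlet7a-2 hairpin: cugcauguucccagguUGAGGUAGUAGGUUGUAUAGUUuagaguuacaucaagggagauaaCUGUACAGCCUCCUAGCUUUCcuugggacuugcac
Mirlet7f-1 hairpin: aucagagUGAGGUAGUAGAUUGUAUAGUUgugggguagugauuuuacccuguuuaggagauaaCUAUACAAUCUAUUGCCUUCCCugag

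The level of a probe set is its deposited log2 value, and a difference is the mean of the ethanol arrays minus the mean of the saline arrays on that scale. Background was set from 1210 probe sets of odorant and vomeronasal receptors (symbols Olfr and Vmn), as their 95th percentile on the same array, 6.41 to 6.55 on the early arrays and 7.28 to 7.70 on the late arrays. Arrays of each timing appear to have been normalized apart, so levels are not compared between timings. Of the 296 miRNA probe sets, 58 (19.6%) lay above background on all 8 arrays, against 47.6% of all probe sets, and 177 lay above it on none. Markers of neurons and glia, such as Snap25 at 13.2 to 13.8, were high on every array. Markers of nasal tissue moved with early exposure, with all 5 past the thresholds used below, against 0.923% of all probe sets. The list was written with earlier results of these data known, so that count is not independent of them. Obp2a of this list exceeded background on 1 array only. Of the 5 markers, 3 were higher and 2 lower after ethanol. Their summed level on the log2 scale was 10.36 to 12.5 on the ethanol and 9.47 to 9.78 on the saline arrays. None of the 5 passed after late exposure, where the summed level was 9.01 to 9.14 and 9.11 to 9.59. The receptors used for background are themselves genes of nasal tissue, and whether such signal moved the cutoffs was not tested. Oligodendrocyte markers ran opposite to the miRNA set described below, with all 3 higher early and all 3 lower late, and 2 of them, Mbp and Mobp of the myelin sheath, passed in the early minus late comparison (0.34 and 0.35). Their summed level was 12.89 to 13.05 on the early ethanol and 12.68 to 12.86 on the early saline arrays, and 13.3 to 13.33 and 13.42 to 13.48 on the late arrays. All 5 neuron markers were likewise higher early and lower late, with 0 past the thresholds in either. Of the astrocyte markers 2 were higher and 2 lower early, and all 4 lower late. Microglia markers were 2 higher and 2 lower early, and 1 higher and 3 lower late. The 2 endothelium and 3 muscle markers were lower at each timing, the 4 pituitary markers higher, and 1 of 3 choroid plexus markers higher. None of these passed. Pituitary values varied widely within groups, as for Gh, at 6.9 and 9.815 on the early ethanol and 7.478 and 8.828 on the early saline arrays. Among probe sets other than miRNA genes and receptors that lay above background on all 4 arrays, 40.5% were higher early and 26.9% late. The part of any of these tissues or cell types in the results was not tested. In whole brain, fewer cells of a type and less RNA per cell cannot be told apart.

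Few miRNA genes differed after early exposure. At the study's thresholds, an unadjusted p of 0.05 and a 1.2-fold difference, 3 of the 296 passed, 1 higher (Mirlet7a-2) and 2 lower (Mirlet7f-1 and Mir451a) after ethanol. These thresholds called 0.923% of all probe sets tested, 0.278% higher and 0.645% lower, so the 1.01% among miRNA genes was near the background. No miRNA gene and no other probe set passed after Benjamini-Hochberg adjustment in limma over the 23410 probe sets. The smallest adjusted p of a miRNA gene rounded to 1, and at an unadjusted p of 0.05 alone the count was again 3, against 1.71% of all probe sets. An unmoderated test of each probe set, the analysis of variance in the study's methods, left 1 of the calls, Mir451a. Centring each array on its median also gave 3 calls, but not the same 3. All were higher, and Mirlet7f-1 and Mir451a, still lower, no longer passed. With this centring the share of higher calls over all probe sets moved from 30.1% to 45.3%. The count was 7 without ethanol array 1, 1 without ethanol array 2, 5 without saline array 1 and 14 without saline array 2.

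Mirlet7a-2 was the only miRNA gene higher after early ethanol at these thresholds in the fit to all arrays. Its level was 6.11 and 6.19 on the ethanol arrays and 5.75 and 5.96 on the saline arrays. The ethanol arrays lay above both saline arrays, but all 4 lay under background. The difference was 0.29 (SE 0.0907), a 1.23-fold higher level, with an unadjusted limma p of 0.0115. Without saline array 1 it was 0.19 (SE 0.0951), and without ethanol array 2 it was 0.25 (SE 0.119). Its RefSeq neighbour on the same strand, Mir100, had a difference of 0.07 (SE 0.0912), and their host transcript Mir100hg one of 0.10 (SE 0.111).

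Mirlet7f-1 fell after early ethanol at the same thresholds. It measured 6.25 and 6.19 on the ethanol arrays and 6.67 and 6.36 on the saline arrays. Both ethanol arrays lay under the controls, and only saline array 1 exceeded background. The difference was -0.29 (SE 0.122), 1.23-fold lower, with an unadjusted limma p of 0.0413. It shrank to -0.14 (SE 0.121) without saline array 1, and the p rose to 0.0604 with median centring and to 0.0618 with quantile normalization over all arrays. The call was also lost without either early ethanol array and without either late ethanol array. The genes on either side of it in the chromosome 13 cluster, Mirlet7d and Mirlet7a-1, both had differences of -0.08 (SE 0.106 and 0.141).

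The remaining let-7 genes did not pass after early exposure. Mirlet7d, the highest of the family, measured 7.23 and 7.46 after ethanol and 7.32 and 7.53 in controls. Mirlet7e measured 7.17 and 7.22 against 7.18 and 7.28, and Mirlet7i 6.57 and 6.43 against 6.5025 and 6.73. In each of these genes the ethanol and saline arrays overlapped. Mirlet7a-1, Mirlet7c-1, Mirlet7f-2 and Mirlet7g had differences between -0.13 and 0.01, with ethanol and saline arrays overlapping and all arrays under background. Across the 9 genes the median difference was -0.08, with 2 higher and 7 lower. Mir98, which has the let-7 seed and lies beside Mirlet7f-2 on chromosome X, had a difference of -0.20 (SE 0.257).

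After late exposure none of the 9 let-7 genes passed in the fit to all arrays. The median difference of the family was 0.00, with 5 higher and 4 lower. Mirlet7i had the largest difference, 0.27 (SE 0.158), from 7.52 and 7.19 on the ethanol arrays and 7.29 and 6.89 on the saline arrays, which overlapped. It passed the thresholds without ethanol array 2 (0.43, SE 0.179) and without saline array 1 (0.46, SE 0.164), and was 0.10 (SE 0.179) without ethanol array 1 and 0.07 (SE 0.164) without saline array 2. Mirlet7a-1 followed with 0.17 (SE 0.141) and Mirlet7c-1 with -0.18 (SE 0.190). The genes past the thresholds in the early comparison had late differences of 0.09 for Mirlet7a-2 (SE 0.0907) and -0.08 for Mirlet7f-1 (SE 0.122), each in its early direction, although that of Mirlet7f-1 was 0.03 without late saline array 1. The test of early against late effect did not pass for either, with a limma p of 0.143 for Mirlet7a-2 and of 0.258 for Mirlet7f-1. Mirlet7d, at 8.26 to 8.35, was the only let-7 gene above background on all 4 late arrays.

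**Figure D1:**
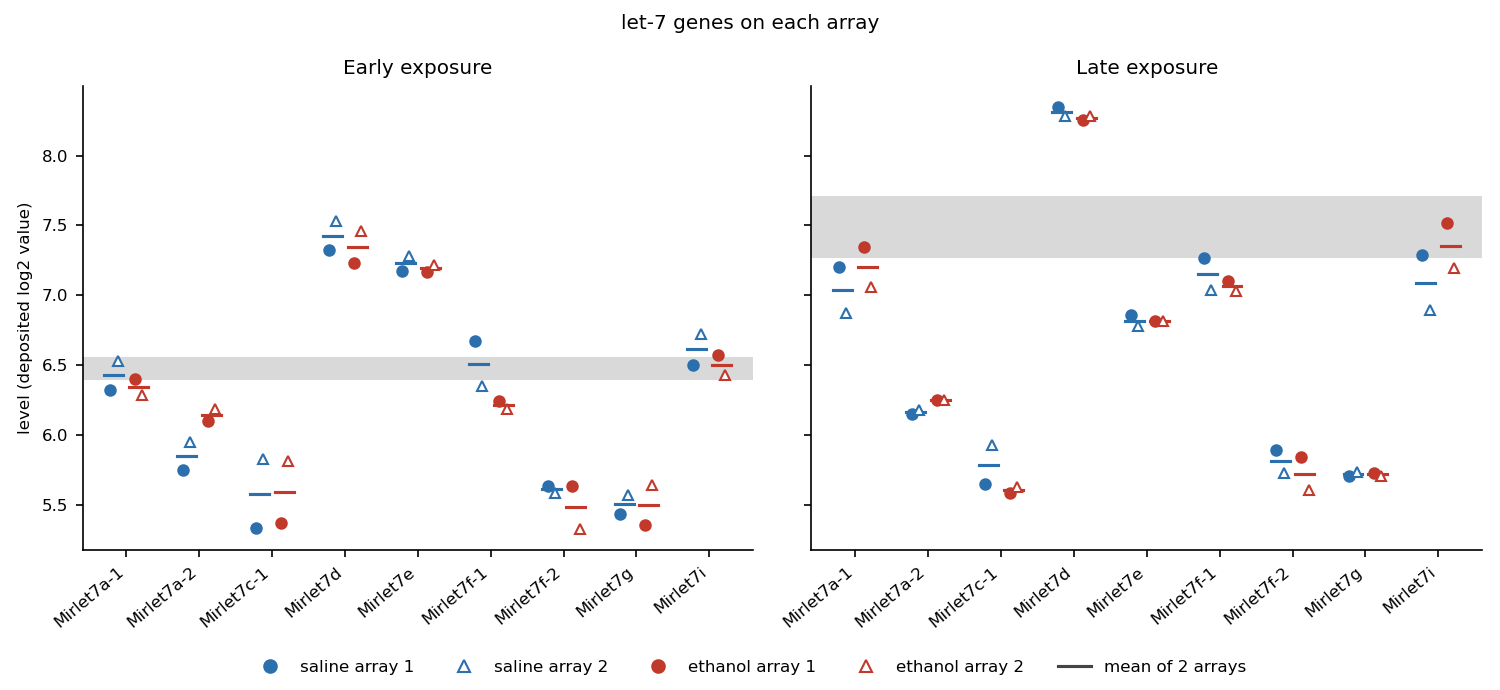
Deposited log2 level of each let-7 gene (x axis) on each array, for early and late exposure in separate panels. Points are arrays, short lines are means of 2 arrays, and the grey band spans the background cutoffs of the 4 arrays of a timing. Mirlet7a-2 is higher and Mirlet7f-1 lower on both early ethanol arrays, at or under the band apart from Mirlet7f-1 on saline array 1.

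Mir451a, whose mature miRNA is made by Argonaute2 without Dicer1 and is typical of red blood cells, was the other gene that fell after early ethanol. Its level was 5.78 and 5.70 on the ethanol arrays and 6.04 and 6.00 on the saline arrays. The groups did not overlap and lay under background throughout. The difference was -0.28 (SE 0.0860), 1.22-fold lower, with an unadjusted limma p of 0.0108. It was under 1.2-fold with median centring (-0.26), without ethanol array 2 (-0.24) and without saline array 1 (-0.26). Mir144, transcribed with Mir451a, had a difference of -0.05 (SE 0.129). Alas2, the measured marker of the red cell list, had early and late differences of 0.00 and 0.01 (SE 0.0997). No probe set of the alpha or beta globin markers with a symbol of its own was in the table.

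Late exposure gave 3 miRNA genes past the thresholds, all higher after ethanol. They were Mir342, Mir196b and Mir34b, or 1.01% of the 296, against 1.16% of all probe sets (0.44% higher and 0.722% lower). Again none passed after adjustment, and the smallest adjusted p rounded to 1. At an unadjusted p of 0.05 alone 8 passed, or 2.7% against 2.49% of all probe sets, and all 8 were higher. The others were Mir375, Mir103-2, Mir96, Mir326 and Mir362, with differences of 0.20 to 0.26. The unmoderated test left 1 call, Mir342, and median centring gave 7, all higher. Over all probe sets, median centring moved the share of higher calls from 37.9% to 62.7%.

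The late count depended on single arrays. It was 37 without ethanol array 2 and 36 without saline array 1, when 7.48% and 3.74% of all probe sets passed. It was 1 without ethanol array 1. It was 3 without saline array 2, but 2 of these were lower.

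Mir342 lies in an intron of Evl, a regulator of actin filaments, and is known from neural and immune cells. It measured 8.06 and 7.99 on the late ethanol arrays and 7.78 and 7.67 on the late saline arrays. The groups did not overlap, and all 4 arrays lay above background, unlike those of Mir196b and Mir34b. The difference was 0.30 (SE 0.0981), 1.23-fold higher, with an unadjusted limma p of 0.0148. Without ethanol array 1 it was 0.27 (SE 0.124), and without saline array 2 it was 0.25 (SE 0.123). Evl itself differed by -0.02 (SE 0.0890). After early exposure Mir342 measured 7.46 and 7.28 against 7.39 and 7.55, a difference of -0.10 (SE 0.0981).

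Mir196b, from the Hoxa gene cluster, measured 6.41 and 6.07 after late ethanol and 6.04 and 5.81 in controls. The lower ethanol array lay just above the higher saline array, and all were under background. Its difference was 0.32 (SE 0.125), with an unadjusted limma p of 0.0344, and it was 0.14 (SE 0.116) without ethanol array 1, 0.20 (SE 0.146) without saline array 2 and 0.25 with quantile normalization.

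Mir34b belongs to the miR-34 and miR-449 family, known from ciliated epithelia. It measured 7.54 and 7.25 after late ethanol and 7.19 and 7.06 in controls, under background on every array. Its difference was 0.26 (SE 0.110), with an unadjusted limma p of 0.0418, and it was 0.12 (SE 0.106) without ethanol array 1 and 0.20 (SE 0.138) without saline array 2. The call was also lost when any early array, which enters the shared estimate of spread, was left out. Mir34c, its cluster neighbour, had a late difference of 0.16 (SE 0.110). Mir449a, with the same seed as miR-34b-5p, had one of 0.34 (SE 0.215).

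The early and late effects were then compared directly. The difference between them passed the same thresholds for 7 miRNA genes, or 2.36%, against 1.99% of all probe sets (0.833% with a higher early effect and 1.15% with a lower early effect). None passed after adjustment, and at an unadjusted p of 0.05 alone the count was also 7, against 2.06%. Of the 7, 6 had the lower effect after early exposure, namely Mir186, Mir342, Mir451a, Mir34b, Mir326 and Mir375. Mir692-1 had the higher effect after early exposure. The count was 4 without early ethanol array 2 and 1 without late saline array 2, and it was 37 and 43 without late ethanol array 2 and late saline array 1.

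Mir186, in an intron of Zranb2, gave the largest of the 6. On the early arrays it measured 7.61 and 7.96 after ethanol and 8.06 and 7.96 in controls. On the late arrays it measured 8.41 and 8.25 after ethanol and 8.21 and 7.95 in controls. Its early effect of -0.23 and late effect of 0.25 differed by -0.48 (SE 0.194), with an unadjusted limma p of 0.0382. Mir692-1 measured 8.97 and 8.98 against 7.80 and 8.64 in the early comparison, and 8.31 and 9.65 against 9.30 and 9.91 in the late comparison. Its late ethanol arrays lay 1.34 apart, the largest gap between replicates of any miRNA gene in that group. Its early minus late effect of 1.38 (SE 0.597, unadjusted limma p of 0.0488) fell to 0.71 (SE 0.454) without the lower of these arrays. Mir692-2 and Mir692-3 were annotated together with the gene Ftl1 and so left out. Whether the Mir692-1 probe set also reads Ftl1 was not tested.

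**Figure D2:**
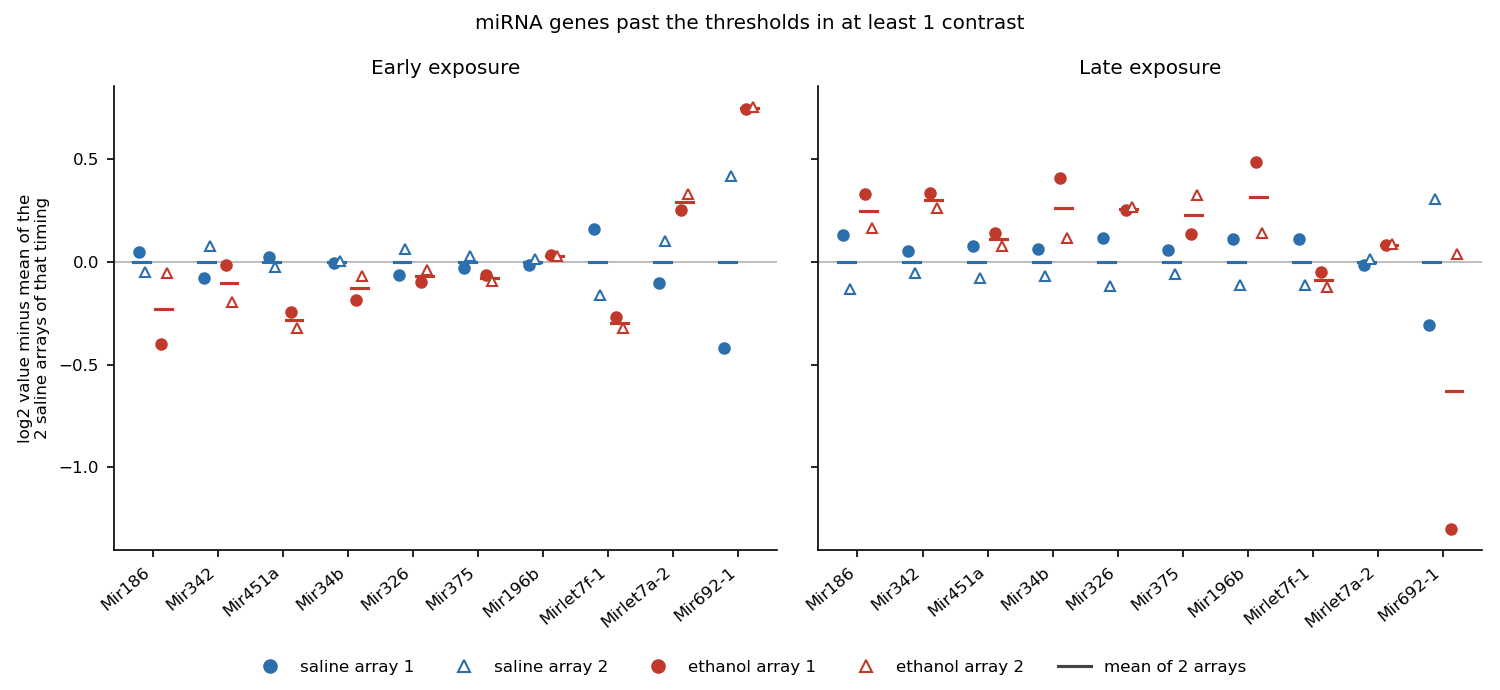
The 10 miRNA genes past the thresholds in the early, the late or the early minus late comparison. The y axis is the log2 value of each array minus the mean of the 2 saline arrays of its timing, points are arrays and short lines are means. Most genes lie within 0.5 of the saline mean, while the late ethanol arrays of Mir692-1 lie 1.34 apart.

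Beyond single genes, the miRNA set as a whole lay lower after early and higher after late ethanol. After early exposure 89 of 296 (30.1%) had a higher ethanol mean, with a median difference of -0.03, against 40.2% and -0.02 over all probe sets. After late exposure 231 (78%) were higher, with a median difference of 0.07, against 47.3% and -0.01 over all probe sets. Ethanol and saline arrays did not overlap for 23 higher and 62 lower miRNA genes after early exposure, 7.77% and 20.9% of the set, against 7.5% and 18.9% of all probe sets. After late exposure 52 higher and 4 lower genes did not overlap, 17.6% and 1.35%, against 12.7% and 15.7%.

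Particular arrays carried these directions. Late ethanol array 1 was the highest of the 4 late arrays for 185 miRNA probe sets (62.5%, against 31.9% of all probe sets). Late saline array 2 was the lowest for 175 (59.1%, against 34.7%). Without late ethanol array 1 the share of miRNA genes higher after ethanol was 51%, and without late saline array 2 it was 50.7%. Without late ethanol array 2 or late saline array 1 it was 86.5% and 85.1%. In the early comparison saline array 2 was the highest for 158 (53.4%, against 26% of all). Without that array 55.4% of miRNA genes were higher after ethanol, and without saline array 1 18.6% were. Median centring moved the early share to 45.3%, against 51.3% of all probe sets, and the late share to 83.4%, against 55.6%. Quantile normalization over all arrays gave 44.9% early and 68.9% late, against 48.5% and 51.1% of all probe sets.

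**Figure D3:**
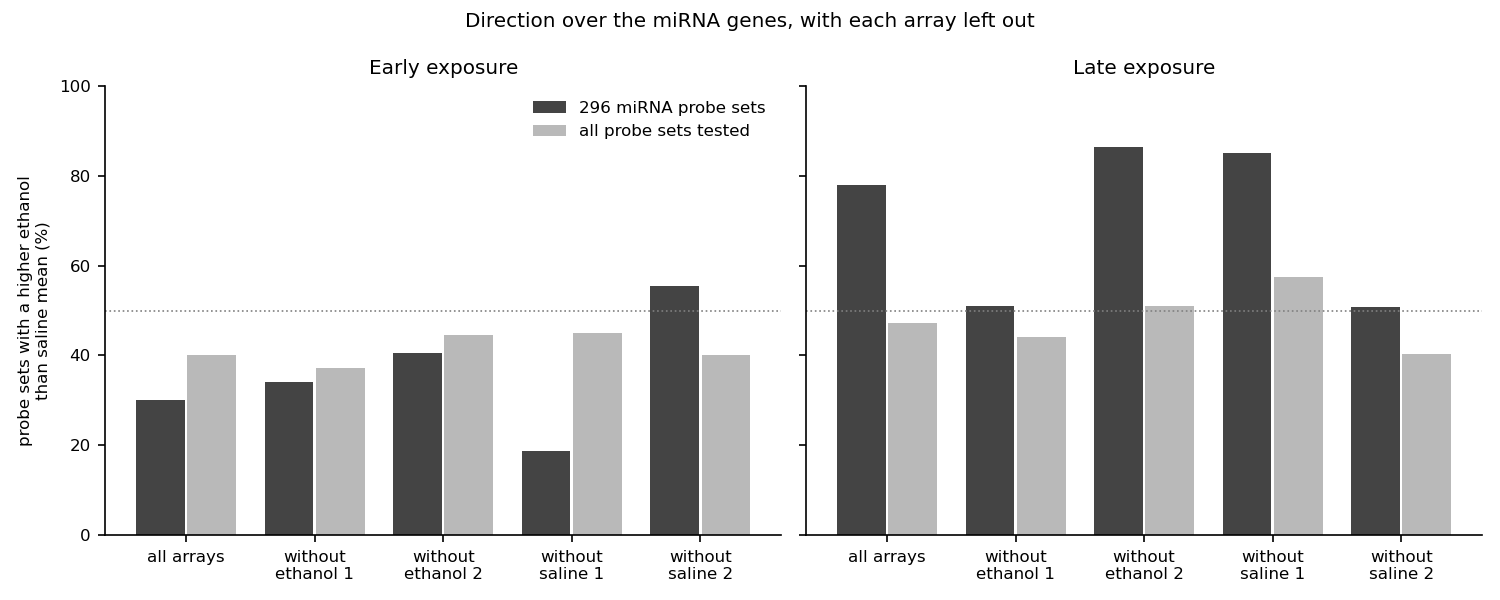
Share of probe sets (y axis, percent) with a higher mean on ethanol than on saline arrays, for all arrays and with each array of the timing left out (x axis). Dark bars are the 296 miRNA probe sets and light bars all 23410 tested, with a dotted line at 50%. The late share of 78% falls to 51% without ethanol array 1 and to 50.7% without saline array 2.

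The direction also varied with the level of the signal. Among probe sets of other genes that lay above background on no late array, 70.0% were higher after late ethanol, and 62.8% of the receptor probe sets were. Of the 216 miRNA genes at that level 81.5% were higher, with a median difference of 0.07. Among genes above background on all 4 late arrays, 67.2% of 58 miRNA genes were higher (median 0.08), against 26.9% of the other genes (median -0.05). The receptor median itself ranged from 6.17 to 6.48 over the late arrays and was highest on ethanol array 1. After early exposure 37.8% of the 98 miRNA genes above background on all 4 arrays were higher, against 40.5% of the other genes. Of the 178 above it on none 25.8% were higher, against 39.6%.

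The early and late comparisons share no arrays. Over the 296 miRNA genes 116 (39.2%) had the same sign in both, with a Pearson correlation across genes of -0.284, against 46.7% and -0.198 over all probe sets. Genes are not independent replicates, and the values share arrays within a timing.

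**Figure D4:**
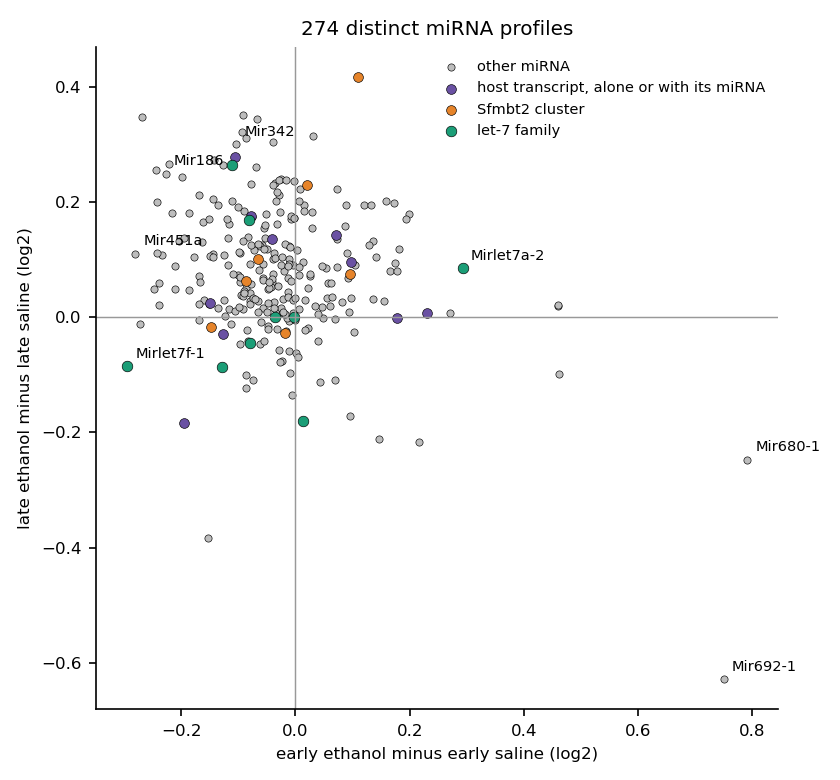
Early (x axis) and late (y axis) ethanol minus saline difference, both on the log2 scale, for the 274 distinct value profiles among the 296 miRNA probe sets. Colours mark the let-7 family, the Sfmbt2 cluster and host transcripts. Most points lie left of 0 on the early axis and above 0 on the late axis, with Mir692-1 and Mir680-1 far to the right.

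The Sfmbt2 cluster showed no gene past the thresholds in any comparison. Its 27 probe sets held only 7 distinct value profiles, because 13 probe sets annotated to Mir669a and Mir669p copies carried identical values, as did 9 annotated to Mir467a, Mir467b and Mir467d. Those copies cannot be told apart on this array. Mir297-1, named by the rule, lies on chromosome 7 in RefSeq and not in Sfmbt2.

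The highest profiles of the cluster were Mir297b and Mir669c. Mir297b measured 8.88 and 8.76 after early ethanol and 8.60 and 8.996 in controls, and 9.15 and 8.54 after late ethanol against 8.78 and 8.46. Mir669c measured 8.65 and 7.98 against 8.09 and 8.32 in the early comparison, and 8.96 and 8.47 against 8.74 and 7.85 in the late comparison. Ethanol and saline arrays overlapped in all of these. Mir669c had the largest late difference, 0.42, with an SE of 0.312 and a limma p of 0.216. The Mir669a and Mir669p profile differed by -0.02 early and -0.03 late (SE 0.0824 for each). The Mir467 profile differed by 0.10 early and 0.07 late (SE 0.216 for each).

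Of the remaining profiles, Mir297-1 had an early difference of -0.15 (SE 0.220), Mir466 one of -0.09 (SE 0.146) and Mir669b a late difference of 0.10 (SE 0.190). Sfmbt2, a Polycomb group gene, measured 6.36 and 6.40 after early ethanol and 6.38 and 6.44 in controls, a difference of -0.03 (SE 0.0754), and its late difference was -0.01. The median early difference of the cluster was -0.02, over 27 probe sets or 7 profiles alike. The median late difference was -0.02 over the 27 and 0.07 over the 7, in which 5 were higher. The copies with identical values fixed the first of these.

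**Figure D5:**
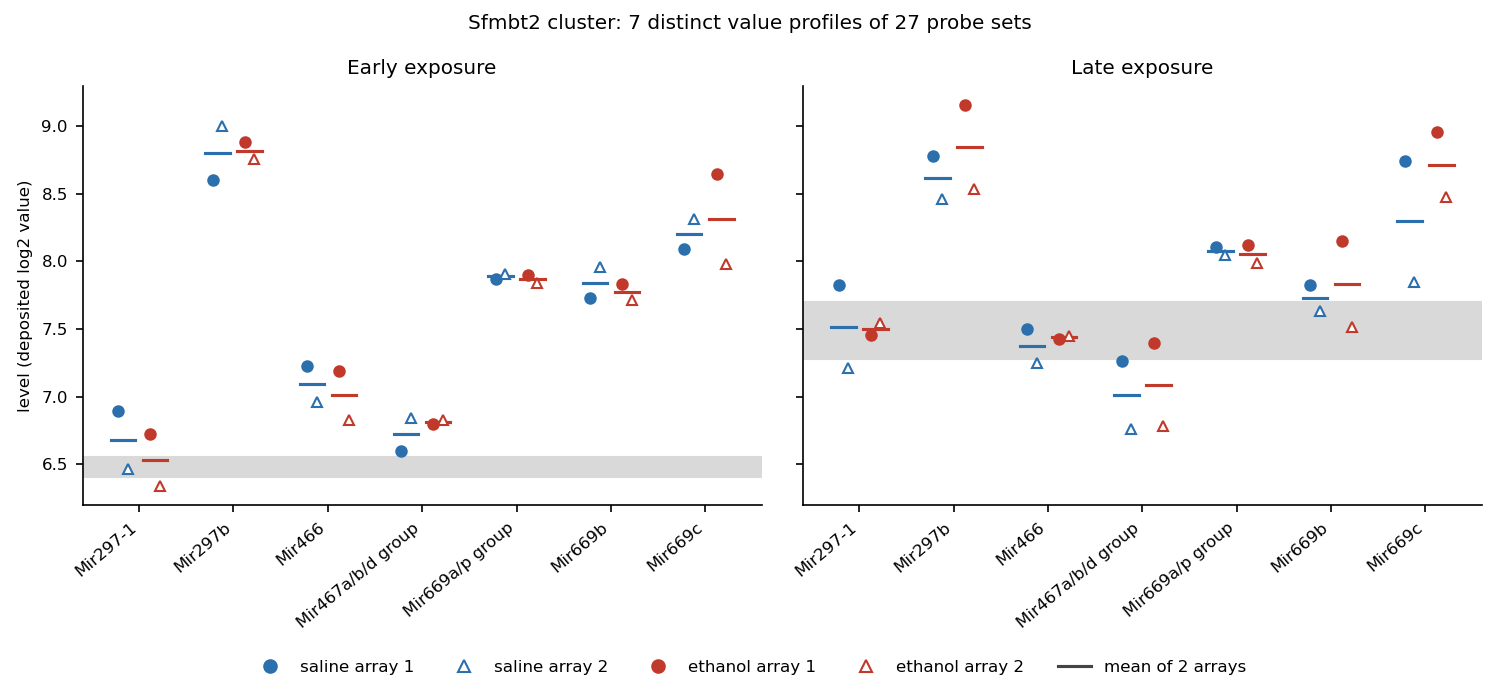
Deposited log2 level of the 7 distinct value profiles among the 27 Sfmbt2 cluster probe sets (x axis), on early and late arrays. Points are arrays, short lines are means of 2 arrays, and the grey band spans the background cutoffs. Ethanol and saline arrays overlap in all 7 profiles at both timings.

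Long transcripts that host miRNAs gave no call. Mir100hg, which holds Mir100 and Mirlet7a-2, measured 9.38 and 9.19 after early ethanol against 9.13 and 9.24, and had a late difference of 0.10 (SE 0.111). Mir99ahg, which holds Mir99a and Mirlet7c-1, was read by 4 probe sets with early differences from -0.15 to 0.23. The largest of them measured 6.81 and 6.71 after ethanol and 6.53 and 6.53 in controls, which did not overlap, with a limma p of 0.0726. Mir670hg had differences of -0.20 early and -0.18 late, and Mir17hg, host of the miR-17 to miR-92 cluster known in cell proliferation, -0.08 and 0.18. The probe sets that joined Mir22, Mir124a-1 and Mir92-1 to their hosts had early differences of -0.13, -0.04 and -0.11, and late ones of -0.03, 0.14 and 0.28. None of the 10 host probe sets passed the thresholds.

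Apart from host transcripts, the highest of the other miRNA genes in early controls were Mir680-2, Mir680-3, Mir346, Mir598, Mir383 and Mir15a. Mir383 measured 9.57 and 9.54 after early ethanol and 9.45 and 9.53 in controls, and Mir346 9.61 and 9.77 against 9.50 and 9.73. The differences of Mir346, Mir598, Mir383 and Mir15a lay between -0.01 and 0.09 early and between 0.02 and 0.16 late, and none passed. The Mir680 genes were far less steady. Mir680-1 and Mir680-2 measured 7.96 and 9.47, and 9.57 and 10.81, on the early saline arrays, where array 1 was the lower in both. They share the same mature sequence with Mir680-3 (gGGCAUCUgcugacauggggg) at 3 places in the genome. Their early differences, 0.79 (SE 0.624) and 0.46 (SE 0.498), did not pass.

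MiRNAs known to be enriched in brain were described from a written list, of which 25 probe sets were measured. None passed at either timing, and 9 lay above background on all early arrays and 5 on all late arrays. After early exposure 8 were higher and 17 lower (median -0.05), and after late exposure 23 were higher and 2 lower (median 0.08). Mir9-1, from the miR-9 genes of neural progenitors, measured 8.92 and 8.88 after early ethanol and 9.03 and 9.21 in controls, with no overlap and a difference of -0.22 (SE 0.265). After late exposure it measured 9.51 and 9.04 against 9.46 and 8.55, where late saline array 2 was lowest, with a difference of 0.27 (SE 0.265). Mir9-1 had the lowest and Mir128-1, abundant in neurons, the highest early difference of the list. Mir128-1 differed by 0.16 early and 0.08 late (SE 0.196), and Mir128-2, with the same seed, by 0.03 and 0.02. Mir338, known from oligodendrocytes, differed by 0.14 and 0.03 (SE 0.0819). Mir124a-2 and Mir124a-3, copies of the neuronal miR-124, had early differences of -0.18 and -0.09 and late ones of 0.10 and 0.04. Mir132, induced by neuronal activity, differed by -0.01 and 0.04.

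Of the miRNAs known to respond to ethanol in neural precursor cultures (miR-9, miR-21, miR-153 and miR-335), 4 probe sets were measured and Mir21 was not among them. All 4 were lower after early and higher after late exposure, and none passed. These were also the directions of most miRNA genes, with 207 of 296 lower early and 231 higher late. At each timing 1 of the 4 lay above background on all arrays, and Mir9-1 and Mir9-3 share the same mature sequence. Mir335 lies in an intron of the imprinted gene Mest. It measured 6.37 and 6.21 after early ethanol, both under background, and 6.51 and 6.55 in controls, which did not overlap. Its difference was -0.24 (SE 0.171), and that of Mest 0.21 (SE 0.116). Mir153 differed by -0.06 (SE 0.115) and Mir9-3 by -0.07 (SE 0.0994). The late differences of the 4 ran from 0.06 to 0.27.

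MiRNAs typical of muscle, blood, epithelia, endocrine cells and liver gave 22 probe sets, of which 1 lay above background on all early arrays and 0 on all late arrays. After early exposure 3 were higher and 19 lower (median -0.07), with Mir451a the only call. After late exposure 19 were higher and 3 lower (median 0.12), with Mir34b the only call. Both lists thus leaned the same way as all miRNA genes at each timing.

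Grouping by seed gave 5 further families of 5 or more genes, and none held a gene past the thresholds. Only genes with a mature sequence in RefSeq and a probe set apart from any host were counted. This left out Mir30b and Mir30d, which had no sequence match, and Mir92-1, read together with Mir17hg. Over all miRNA genes, for comparison, 207 of 296 were lower early and 231 higher late. The family with seed AGCAGCA (miR-15, miR-16, miR-195 and miR-497) is known for restraining the cell cycle. All 6 of its probe sets were lower early (median -0.06) and all 6 higher late (median 0.10). Of these 6, 3 lay above background on all early arrays and 2 on all late arrays. The family with seed AUUGCAC (miR-25, miR-32, miR-92, miR-363 and miR-367) had 6 of 6 lower early and 4 of 6 higher late. The growth-related miR-17 family with seed AAAGUGC had 4 of 6 higher at each timing. The miR-181 family (ACAUUCA) had 2 of 6 higher early and 5 of 6 higher late, and the miR-30 family (GUAAACA) 2 of 5 and 3 of 5.

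By RefSeq position, 77 pairs of a miRNA gene and a protein-coding gene holding it on the same strand were compared. Only hosts read by 1 probe set of their own were used, and Mir10b was paired with both Hoxd3 and Hoxd4. The correlation of host and miRNA differences across these pairs, which share their arrays, was 0.0666 early and -0.123 late. Of the 64 hosts 2 (3.12%, against 0.923% of all probe sets) passed after early exposure and 0 (against 1.16%) after late exposure. Both fell, Ctdsp1 by 0.34 on the log2 scale (SE 0.0989, unadjusted limma p of 0.00866), where Mir26b inside it differed by -0.10, and Rcl1 by 0.27 (SE 0.0987, p of 0.0249), where Mir101b differed by -0.17.

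Of the genes that make or use miRNAs, 30 probe sets from a list of 25 genes were measured. After early exposure 1 passed (3.33%, against 0.923% of all probe sets), and after late exposure 0 (against 1.16%). The call was Tut7, an enzyme that adds uridines to the let-7 precursor, which measured lower after early ethanol by 0.30 (SE 0.112, unadjusted limma p of 0.0254) and differed by 0.03 late. A probe set of Ago2, the Argonaute that cleaves targets, had a late difference of -0.25 (SE 0.0897, unadjusted limma p of 0.0227), under the fold threshold, and another had one of -0.01. Prkra, a Dicer1 partner, had an early difference of -0.19 (SE 0.0818), and a probe set of Tarbp2, another such partner, a late one of 0.23 (SE 0.101). Both passed the p threshold (unadjusted limma p of 0.0450 and 0.0484) and not the fold threshold, and the other Tarbp2 probe set had a late difference of 0.02. Drosha measured 9.85 and 9.77 after early ethanol and 9.76 and 9.80 in controls. Over the list 10 were higher and 20 lower early, and 14 and 16 late.

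The hairpins of 221 miRNA genes in RefSeq were 64 to 112 bases long, with a GC content of 28.4% to 69.2%. Across these genes the correlation of GC content with the early difference was 0.242 and with the late difference 0.0896. The study's methods name an adjustment for GC content, which is taken to hold for the late arrays too. The part of base composition in the differences was not tested.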

How the data were processed

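The log2 values were used as deposited. Per the study's methods, the authors read the arrays in Command Console, summarized probe sets by RMA with quantile normalization and a GC adjustment, and took log2 in the Partek suite. The submitters' processing notes give Partek version 6.6, and the methods name another version for these arrays. The genome build is not given in the sources used here. Depth has no counterpart on arrays, where the number of arrays (2 per group) limits precision. The 3 contrasts were fitted with limma 3.58.1 under R 4.3.3, using 4 group means over 8 arrays and moderated variances, and p-values were adjusted by Benjamini-Hochberg over 23410 probe sets. The smallest p of an exact permutation test of 2 arrays against 2 is 0.333, so none was run. The code was tested on simulated data.

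The miRNA genes and the lists were chosen with earlier results of these data known. The report names miRNA genes past an unadjusted p of 0.05 and a fold of 1.2 in any contrast, all let-7 genes, the highest or lowest-p Sfmbt2 members, the 6 highest others in early saline, and members of the written lists. Mir680-1, the genes past the p threshold alone, Mir98, Mir99a, Mir144, Mir34c, Mir449a, Mest, Ctdsp1, Rcl1 and the miRNAs inside the last 2 were chosen after their values were seen. Of several probe sets for 1 gene, each is given. Probe sets with identical values were kept and also counted once. Alternatives were an unmoderated test, a replicate block, median centring, quantile normalization over all arrays with limma, removal of the lowest 25% of probe sets, and leaving out each array. With an array left out, the single array remaining in that group took its spread from the other groups. Alternatives chosen after seeing the data were the replicate block with crossed numbers, medians over distinct profiles and medians over genes above background. Sequences came from RefSeq tables, and figures from matplotlib 3.10.9 (Python 3.11.15).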

Additional observations from a re-analysis of the deposited data

Results flagged for a closer look

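For 7 miRNA genes the ethanol effect differed between the early and the late timing at an unadjusted limma p of 0.05 and 1.2-fold, and none of them after adjustment. As early effect minus late effect on the log2 scale, the values were -0.477 for Mir186, -0.404 for Mir342, -0.392 for Mir451a, -0.391 for Mir34b, -0.33 for Mir326, -0.309 for Mir375 and 1.38 for Mir692-1. Mir451a was the one of these that stayed past the thresholds under every alternative that kept it, though it was removed with the lowest 25% of probe sets, with an unadjusted limma p of 0.0116 over all arrays. The other 6 lost their call when at least 1 array was left out. Mir186 moved to -0.304 without early ethanol array 1, Mir34b to -0.246 and Mir692-1 to 0.7085 without late ethanol array 1, and Mir326 to -0.213 without late saline array 2. Mir375, Mir451a, Mir326 and Mir34b lay under background on all 8 arrays. Groups of 2 arrays are too small for a test of single outlying arrays.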

How the results depend on the processing

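The adjusted counts for early and late exposure were 0 under every alternative, and no difference past the thresholds reversed. The early, late and early minus late counts of 3, 3 and 7 became 1 and 1 with the unmoderated test (not run for the third). Leaving out each array gave 1 to 14, 1 to 37 and 1 to 43. The late count was 7 with median centring, and the early minus late count 4 without the lowest 25% of probe sets, which left 165 miRNA genes. The labels do not tie arrays of the same number to a shared litter or day. Deviations of same-numbered arrays from their group means correlated at 0.466 early and -0.464 late. With the replicate number as a block the counts were 6, 10 and 22. With the late numbers crossed they were 8, 6 and 15. The early median of all miRNA genes, -0.03, was -0.0104 with median centring, -0.0119 with quantile normalization and -0.0710 to 0.00290 with arrays left out (lowest without early saline array 1, highest without early saline array 2). The late median of all, 0.07, ran from 0.000588 without late ethanol array 1 to 0.127 without late saline array 1, and was 0.00345 without late saline array 2. The let-7 medians were -0.0479 early with quantile normalization and -0.135 to 0.0219 with arrays left out, by the same arrays, and 0.0429 late without the lowest 25% and -0.0442 late over genes above background. The late Sfmbt2 median was 0.0744 over distinct profiles, and -0.0932 to 0.191 without late ethanol array 1 and without late saline array 1. The causes were not tested. Let-7 differences that had not passed changed sign in 19 cases. With arrays left out, the early differences ran from -0.224 to 0.00072 for Mirlet7i, -0.194 to 0.0332 for Mirlet7d, -0.185 to 0.0219 for Mirlet7a-1, -0.232 to 0.259 for Mirlet7c-1, -0.0884 to 0.017 for Mirlet7e, -0.147 to 0.140 for Mirlet7g and -0.281 to 0.0241 for Mirlet7f-2. The late ones ran from -0.198 to 0.0287 for Mirlet7f-1, -0.0376 to 0.0378 for Mirlet7e, -0.0149 to 0.0168 for Mirlet7g and -0.207 to 0.0331 for Mirlet7f-2. Quantile normalization gave -0.0254 for Mirlet7e late, -0.0377 for Mirlet7g late and 0.0155 for Mirlet7g early, where median centring gave 0.0190. Over the called and let-7 differences and their alternatives, 66 values kept their direction but were no longer past the thresholds, 2 (Mirlet7i late) came past them, and 303 kept direction and side. Signal limits these values, with 177 of 296 probe sets above background on no array.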
